A study of Mus musculus with 4 samples.

Results

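Genes of cyclic nucleotide signalling were followed across the cell classes of the mouse heart: the adenylyl cyclases, soluble guanylyl cyclase, the phosphodiesterases, protein kinases A and G, the Rap exchange factors and the A-kinase anchoring proteins. Members were chosen by symbol alone, as every gene named Pde, Adcy, Prkac, Prkar, Prkg, Gucy1, Rapgef2 to Rapgef6 or Akap followed by its number, which gave 62 of the 25906 genes in the count tables. Of these, 60 had at least 20 unique molecular identifiers (UMIs, the tags that count captured RNA molecules) in the kept nuclei of the 4 libraries and are reported. Akap3, with 5 UMIs, and Akap4, with 0, fell below that minimum. The 60 were 10 adenylyl cyclases, 4 soluble guanylyl cyclase genes, 21 phosphodiesterases, the prenyl-binding protein Pde6d, 2 catalytic and 4 regulatory subunits of protein kinase A, 2 cGMP-dependent kinases, 5 Rap exchange factors and 11 anchoring proteins.

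The study asked how voluntary wheel running alters the cells of the heart, with and without an infarct, by sequencing single nuclei of the cardiac ventricles. All mice were wild-type C57BL/6J, male and female, and 8 weeks old at the start. The 4 groups were running infarct (16 weeks with a wheel, then infarct surgery and collection 2 weeks later), sedentary infarct (the same surgery after 16 weeks without a wheel), running (16 weeks with a wheel, no surgery) and sedentary (no wheel, no surgery). Each infarct library pooled 4 hearts, each library without an infarct pooled 2, and Hoechst-stained nuclei of each pool were sorted and loaded into a single well. With 1 library per group no difference has a replicate check, so no test was made and no p-value is given. Intervals below are 95% intervals from the counts alone: they cover counting error, and neither animals nor wells.

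Cyclic AMP and cyclic GMP are small intracellular messengers. Adenylyl cyclases make cAMP when G protein-coupled receptors are engaged, and soluble guanylyl cyclase, a heterodimer of an alpha and a beta subunit, makes cGMP when nitric oxide binds its haem. Phosphodiesterases break both down, each family with its own preference and regulation, while anchoring proteins hold protein kinase A next to its substrates. In the heart, cAMP and protein kinase A carry the beta-adrenergic rise in rate and force, and cGMP and its kinase relax vascular smooth muscle.

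Libraries held 4922 barcodes in running infarct, 3243 in sedentary infarct, 6253 in running and 5388 in sedentary hearts, with 29916572, 26170995, 37533722 and 32899707 UMIs in that order, and 2 to 12 barcodes were shared by any pair of libraries. After filters 18781 nuclei were kept, and 13904 of them fell into 9 classes named from marker genes after clustering without the member genes. Cardiomyocyte-like nuclei numbered 415 in running infarct, 368 in sedentary infarct, 655 in running and 778 in sedentary hearts. Mitochondrially encoded genes took 3.93% of UMIs in running infarct, 4.69% in sedentary infarct, 9.65% in running and 6.21% in sedentary hearts. The other nuclei lay in clusters of low depth, in unnamed clusters or in clusters with high doublet scores. Such scores mark barcodes likely to hold more than 1 nucleus. Others were in cycling, lymphocyte, dendritic and Schwann clusters with under 30 nuclei in at least 1 library. Levels are given as CPM, the UMIs of a gene scaled to the summed UMIs of its class and library, with mitochondrially encoded genes left out of the sum. They are compared within a gene only, since nuclear UMIs of different genes scale with gene length. Nuclei called Y-positive, from 2 or more UMIs of Y-linked genes, made up 17.1% of the compared nuclei in running infarct, 16.6% in sedentary infarct, 37.7% in running and 33.5% in sedentary hearts, so the pools differed in their sex makeup.

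Many members were highest in the same class in every library. A member was called set apart where its lowest library in a class lay above its highest library in each of the other 8 classes. By that rule 25 of the 60 members were set apart, against 21.5% of 17440 genes with at least 20 UMIs. Among genes with at least 1000 UMIs, 23 of 46 members were set apart, against 27.6% of 8894 genes. By class, counts are out of the 60 members, and each background is the share of the 17440 genes set apart in that class. Cardiomyocyte-like nuclei held 9 of the 60 (background 5.91%), pericyte-like nuclei 5 (background 0.482%) and smooth muscle-like nuclei 4 (background 1.2%). Vascular endothelial-like nuclei held 3 (background 1.54%) and macrophage-like nuclei 2 (background 5.85%). Fibroblast-like (background 1.34%) and mesothelial-like nuclei (background 2.97%) held 1 each. Endocardial-like (background 0.883%) and lymphatic endothelial-like nuclei (background 1.31%) held 0. These counts describe 4 libraries that differ in condition and have no test.

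**Figure D1:**
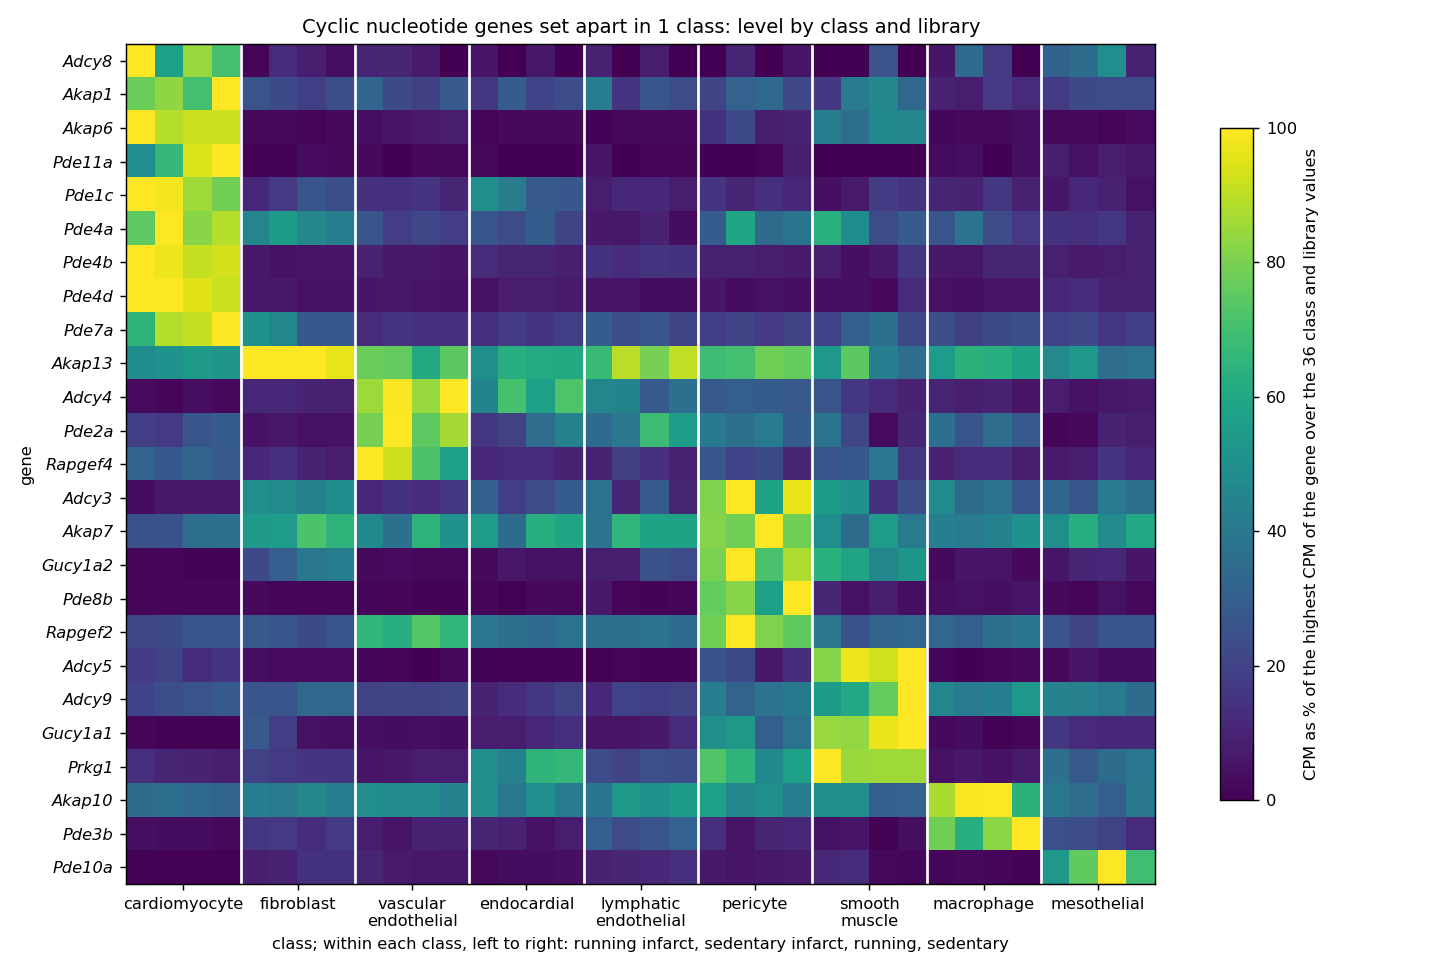
Each line of the plot is 1 of the 25 members set apart in a class, each column a class and library (running infarct, sedentary infarct, running and sedentary from left to right within a class), and the colour gives CPM as a percentage of that gene's highest value. The bright blocks of 4 columns show that each gene stays highest in its class in every library, with Pde4d, Pde4b, Pde11a, Pde8b and Pde10a dark nearly everywhere else.

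Cardiomyocyte-like nuclei set apart 9 members, among them 3 of the cAMP-degrading Pde4 genes and the nuclear envelope anchor Akap6. Pde4d, a cAMP-specific phosphodiesterase bound to the ryanodine receptor and beta-adrenergic complexes, was at 8809 CPM in running infarct, 8782 in sedentary infarct, 8409 in running and 8092 in sedentary nuclei. No other class exceeded 1110.4 CPM of it, in mesothelial-like nuclei. Pde4b, the cAMP-specific enzyme found with the L-type calcium channel in mouse heart, was at 2294 CPM in running infarct, 2232 in sedentary infarct, 2095 in running and 2135 in sedentary nuclei, and at most 342 CPM elsewhere. Pde4a, another member of that rolipram-sensitive family, was at 104 CPM in running infarct, 138 in sedentary infarct, 113 in running and 123 in sedentary nuclei, with fibroblast-like nuclei next at 57.9 to 75.2 CPM. Pde4c, the remaining gene of that family, led in pericyte-like nuclei at 35.3 to 100.1 CPM, and cardiomyocyte-like nuclei held 3.49% to 10.1% of that level. Free RNA was gauged from the cardiomyocyte markers read in the other classes. Their sum there was 2.44% to 6.37% of its cardiomyocyte level in 7 classes, but 8.95% to 21.7% in smooth muscle-like nuclei.

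Akap6, which anchors protein kinase A at the nuclear envelope of muscle cells, was at 1887 CPM in running infarct, 1677 in sedentary infarct, 1735 in running and 1737 in sedentary nuclei. Smooth muscle-like nuclei held 684 to 884 CPM, or 40.8% to 50.9% of the cardiomyocyte level. The summed cardiomyocyte markers read there were 8.95% to 21.7% of theirs, and the part of free RNA in the Akap6 values was not tested. Akap1, the anchor of the outer mitochondrial membrane, was at 106 CPM in running infarct, 113 in sedentary infarct, 95.4 in running and 136 in sedentary nuclei. No library differed from another by 1.5-fold in this class for either anchor. Pde1c, a calcium- and calmodulin-activated enzyme that cuts both messengers, was at 768 CPM in running infarct, 756 in sedentary infarct, 658 in running and 603 in sedentary nuclei. Pde7a, a cAMP-specific enzyme insensitive to rolipram, was at 354 CPM in running infarct, 484 in sedentary infarct, 497 in running and 545 in sedentary nuclei. Pde11a, which cuts both messengers, was at 30.6 CPM in running infarct, 41.6 in sedentary infarct, 58.96 in running and 62.3 in sedentary nuclei, and at most 5.32 CPM elsewhere. Adcy8, a calcium-stimulated adenylyl cyclase, was low at 20.4 CPM in running infarct, 11.6 in sedentary infarct, 17.3 in running and 14.4 in sedentary nuclei, and at most 10.00 CPM elsewhere.

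Prkg1, Gucy1a1 and Gucy1a2 of the cGMP branch were set apart in mural classes. Prkg1, the cGMP-dependent kinase that lowers calcium and tone in smooth muscle, was at 8930.0 CPM in running infarct, 7580.2 in sedentary infarct, 7659 in running and 7650.2 in sedentary nuclei of the smooth muscle-like class. Pericyte-like nuclei followed at 4161 to 6508 CPM. Endocardial-like nuclei overlapped them in Prkg1, at 4395 CPM in running infarct, 3924 in sedentary infarct, 5824 in running and 5965 in sedentary nuclei. Gucy1a1, the alpha-1 subunit of soluble guanylyl cyclase, was at 778 CPM in running infarct, 773 in sedentary infarct, 894 in running and 922 in sedentary nuclei of the smooth muscle-like class, with pericyte-like nuclei next at 276 to 498 CPM. The alpha-2 subunit Gucy1a2 was set apart in pericyte-like nuclei instead, at 1025 CPM in running infarct, 1282 in sedentary infarct, 915 in running and 1125 in sedentary nuclei, with smooth muscle-like nuclei next at 584 to 816 CPM. Fibroblast-like nuclei held 27.7% to 55.6% of the pericyte level of Gucy1a2. Gucy1b1, the beta-1 subunit that both alpha subunits pair with, was at 510.2 CPM in running infarct, 611 in sedentary infarct, 329 in running and 384 in sedentary nuclei of the pericyte-like class. Smooth muscle-like nuclei held 438 CPM in running infarct, 392 in sedentary infarct, 358 in running and 316 in sedentary nuclei, and the 2 ranges overlap. Pde5a, the cGMP-specific target of sildenafil, was highest in smooth muscle-like nuclei at 199.9 to 289.7 CPM and next in pericyte-like nuclei at 89.4 to 202 CPM, so it was not set apart. Pde9a, another cGMP-specific enzyme, led in fibroblast-like nuclei at 57.7 to 89.5 CPM, and smooth muscle-like nuclei held 9.5% to 36.4% of that level.

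Adenylyl cyclases also split between the mural classes. Adcy5, a calcium-inhibited isoform best known from cardiomyocytes, was at 373 CPM in running infarct, 443 in sedentary infarct, 421 in running and 454 in sedentary nuclei of the smooth muscle-like class, against 78.3 CPM in running infarct, 88.7 in sedentary infarct, 53.9 in running and 70.4 in sedentary nuclei of the cardiomyocyte-like class. Adcy9, a forskolin-insensitive isoform, was at 334 CPM in running infarct, 369.8 in sedentary infarct, 468 in running and 612 in sedentary nuclei of the smooth muscle-like class. Smooth muscle-like nuclei numbered only 49 in running infarct, 30 in sedentary infarct, 46 in running and 39 in sedentary hearts. Pericyte-like nuclei set apart Adcy3, a calmodulin-stimulated isoform, at 89.3 CPM in running infarct, 111 in sedentary infarct, 63.6 in running and 107 in sedentary nuclei. They also set apart Pde8b, a cAMP-specific phosphodiesterase resistant to the broad inhibitor IBMX, at 846 CPM in running infarct, 907 in sedentary infarct, 631 in running and 1109 in sedentary nuclei, with at most 121 CPM in any other class. Akap7, an anchor described at the L-type calcium channel, was at 155 CPM in running infarct, 149 in sedentary infarct, 190.1 in running and 149 in sedentary nuclei. Rapgef2, a Rap exchange factor with a PDZ domain, was at 1119 CPM in running infarct, 1420.4 in sedentary infarct, 1146 in running and 1072 in sedentary nuclei, just above vascular endothelial-like nuclei at 897 to 1048 CPM.

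Vascular endothelial-like nuclei set apart 3 members. Rapgef4, which encodes the cAMP-activated exchange factor Epac2, was at 654 CPM in running infarct, 604 in sedentary infarct, 471 in running and 368 in sedentary nuclei, with cardiomyocyte-like nuclei next at 179 to 214 CPM. Adcy4, an adenylyl cyclase stimulated by G protein beta-gamma subunits, was at 181 CPM in running infarct, 210.4 in sedentary infarct, 179 in running and 212 in sedentary nuclei, with endocardial-like nuclei next at 95.1 to 153 CPM. Pde2a, which cuts both messengers and is switched on by cGMP, was at 147 CPM in running infarct, 185 in sedentary infarct, 139 in running and 160.0 in sedentary nuclei. Rapgef3, the Epac1 gene, was highest in the same class at 169 to 228 CPM but overlapped mesothelial-like nuclei at 117 to 172 CPM. Rapgef5, another Rap exchange factor, was shared by the endothelial classes, with 999.5 to 1422 CPM in vascular and 949.8 to 1205 CPM in lymphatic endothelial-like nuclei.

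The remaining members set apart were spread over 3 classes. Pde3b, the cGMP-inhibited enzyme best known for insulin action in fat and liver, was at 565 CPM in running infarct, 455 in sedentary infarct, 597 in running and 722 in sedentary nuclei of the macrophage-like class. Akap10, an anchor for both regulatory subunit types, was at 346 CPM in running infarct, 393 in sedentary infarct, 396 in running and 254 in sedentary nuclei of the same class. Pde10a, which cuts both messengers and is best known from striatal neurons, was at 999 CPM in running infarct, 1414 in sedentary infarct, 1870.2 in running and 1298 in sedentary nuclei of the mesothelial-like class, against 159 to 272 CPM in fibroblast-like nuclei. Akap13, another anchoring protein, was at 1327 CPM in running infarct, 1322 in sedentary infarct, 1326 in running and 1278 in sedentary nuclei of the fibroblast-like class, only just above lymphatic endothelial-like nuclei at 896 to 1199.9 CPM.

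The other 35 members had ranges that overlapped between their leading classes. The kinase A subunits were among them: Prkaca, a catalytic subunit, led in cardiomyocyte-like nuclei at 45.2 to 59.9 CPM. So did Prkar1a, a regulatory subunit, at 144 to 236 CPM. Prkacb, the other catalytic subunit, led in smooth muscle-like nuclei at 151 to 184 CPM, with pericyte-like nuclei next at 136 to 174 CPM. Pde1a, a calmodulin-activated enzyme, led in fibroblast-like nuclei at 723 to 851 CPM, next to smooth muscle-like nuclei at 657 to 936 CPM. Pde3a, the cGMP-inhibited cAMP phosphodiesterase that milrinone blocks in heart and vessel, led in smooth muscle-like nuclei at 2362 to 3081 CPM and overlapped endocardial-like nuclei at 1474 to 3296 CPM. Pde8a led in lymphatic endothelial-like nuclei at 357 to 476 CPM, and Adcy7, stimulated by beta-gamma subunits, led in macrophage-like nuclei at 242 to 312 CPM. Adcy6, the other calcium-inhibited isoform of heart muscle, led in pericyte-like nuclei at 186 to 319 CPM, with cardiomyocyte-like nuclei next at 169 to 251 CPM. The photoreceptor genes Pde6b and Pde6c and the cyclases Adcy1, Adcy10 and Gucy1b2 were at most 16.4 CPM in every class and library, the highest being Adcy10.

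Infarct comparisons set running infarct against running and sedentary infarct against sedentary hearts, 1 library each. A member was measured in a class where both libraries together held at least 100 UMIs, and called where its CPM differed at least 1.5-fold. Values in every library are given for those whose whole interval lay beyond 1.5-fold: 52 pairs of gene and class over the 4 comparisons, from 22 genes. The 2 infarct comparisons use separate libraries, while each also shares libraries with the running comparisons further on.

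Fibroblast-like nuclei showed the widest infarct difference of any measured member, in the subunits of soluble guanylyl cyclase. Gucy1a1 was at 257 CPM in running infarct, 167 in sedentary infarct, 40.00 in running and 34.7 in sedentary nuclei. Running infarct stood 6.42-fold higher (95% interval 5.55 to 7.44) than running, and sedentary infarct 4.83-fold higher (95% interval 4.09 to 5.72) than sedentary. Its partner Gucy1b1 was at 150.2 CPM in running infarct, 143 in sedentary infarct, 48.8 in running and 50.2 in sedentary nuclei. In running infarct it was 3.08-fold higher (95% interval 2.66 to 3.56), and in sedentary infarct 2.86-fold higher (95% interval 2.47 to 3.32). Both infarct libraries lay above both libraries without an infarct for either gene. The alternative alpha subunit Gucy1a2 stood the other way round, at 284 CPM in running infarct, 386 in sedentary infarct, 509 in running and 539 in sedentary nuclei. Set against running, running infarct was 1.79-fold lower (95% interval 1.67 to 1.92), and sedentary infarct was 1.39-fold lower (95% interval 1.31 to 1.48) than sedentary. The 10 nuclei richest in Gucy1a1 held 20.7% of its fibroblast UMIs in running infarct, 19.4% in sedentary infarct, 14.7% in running and 13.7% in sedentary hearts, so many nuclei carried it.

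The promoter windows of these subunits, from RefSeq on build GRCm38.p6, are shown because Gucy1a1 and Gucy1b1 stood together and apart from Gucy1a2. Each window runs from 250 bases before to 50 after an annotated transcription start, and 52 of the 62 members had a window. Gucy1a1 and Gucy1b1 are neighbouring protein-coding genes on chromosome 3 with 0 others between them, both on the minus strand, and Gucy1a2 lies on chromosome 9 on the plus strand. The windows are chr3:82145601-82145900 for Gucy1a1, which has another start whose window is not shown, chr3:82074662-82074961 for Gucy1b1 and chr9:3532099-3532398 for Gucy1a2. They are written 5′ to 3′ on the gene's strand, with motif matches in capitals.
Gucy1a1: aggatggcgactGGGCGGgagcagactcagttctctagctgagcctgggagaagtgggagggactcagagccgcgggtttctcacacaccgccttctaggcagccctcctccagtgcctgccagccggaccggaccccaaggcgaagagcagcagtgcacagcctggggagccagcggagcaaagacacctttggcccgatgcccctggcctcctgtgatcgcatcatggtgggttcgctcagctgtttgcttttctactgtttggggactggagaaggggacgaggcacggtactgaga
Gucy1b1: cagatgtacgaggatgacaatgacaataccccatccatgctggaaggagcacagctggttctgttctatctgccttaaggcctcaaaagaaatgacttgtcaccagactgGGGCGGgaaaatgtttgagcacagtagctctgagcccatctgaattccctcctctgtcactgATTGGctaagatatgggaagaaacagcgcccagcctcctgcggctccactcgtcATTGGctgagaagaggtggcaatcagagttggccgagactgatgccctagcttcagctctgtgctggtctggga
Gucy1a2: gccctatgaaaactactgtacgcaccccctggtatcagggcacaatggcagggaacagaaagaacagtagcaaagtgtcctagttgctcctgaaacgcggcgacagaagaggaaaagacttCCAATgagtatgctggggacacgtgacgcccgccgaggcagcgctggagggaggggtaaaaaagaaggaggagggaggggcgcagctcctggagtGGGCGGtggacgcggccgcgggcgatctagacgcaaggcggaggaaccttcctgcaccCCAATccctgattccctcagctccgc

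Motifs searched on both strands were the cAMP response element TGACGTCA, the AP-1 motif (TGA, any base, then TCA), the TEAD motif GGAATG and the CArG box. The GC box GGGCGG, the box spelled CCAAT and the TATA box, spelled TATAAA, were searched too. The capitals mark 1 GC box in the Gucy1a1 window, 1 GC box and 2 CCAAT motifs in the Gucy1b1 window, written there in reverse as ATTGG, and 1 GC box and 2 CCAAT motifs in the Gucy1a2 window, none overlapping another. GC boxes occur in 35.7% and CCAAT in 37.4% of 32851 promoter windows of the same length. The cAMP response element occurs in 1.79% of those windows, the AP-1 motif in 7.81%, the TEAD motif in 14.7%, the CArG box in 1.63% and the TATA box in 13.6%, and none of these letters are in the 3 windows printed. A match is a description of letters, not a site in use.

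The makeup of the fibroblast-like class differed between libraries, and this moved with the cyclase genes. As a share of the class, the cluster led by Postn, Col12a1 and Kcnma1, genes of activated scar fibroblasts, made up 66.4% in running infarct, 49.4% in sedentary infarct, 2.44% in running and 2.59% in sedentary nuclei. In that cluster Gucy1a1 was at 348 CPM in running infarct, 241 in sedentary infarct, 29.2 in running and 8.23 in sedentary nuclei, where the running and sedentary libraries hold only 37 such nuclei each. In the cluster led by Pi16 and Scara5, genes of adventitial fibroblasts, Gucy1a1 was at 95.3 CPM in running infarct, 75.4 in sedentary infarct, 34.6 in running and 27.6 in sedentary nuclei. In the cluster led by Col6a6 and Gfra1 it was at 82.7 CPM in running infarct, 80.4 in sedentary infarct, 59.5 in running and 51.9 in sedentary nuclei. Over those 2 resting clusters together Gucy1a1 was 2.33-fold higher in running infarct and 2.18-fold higher in sedentary infarct. The summed pericyte markers in fibroblast-like nuclei were also higher with an infarct, at 459 CPM in running infarct, 479 in sedentary infarct, 290.4 in running and 283 in sedentary nuclei. The smooth muscle markers were at 212 CPM in running infarct, 248 in sedentary infarct, 221 in running and 227 in sedentary nuclei. The part of these marker levels in the Gucy1a1 values was not tested.

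**Figure D2:**
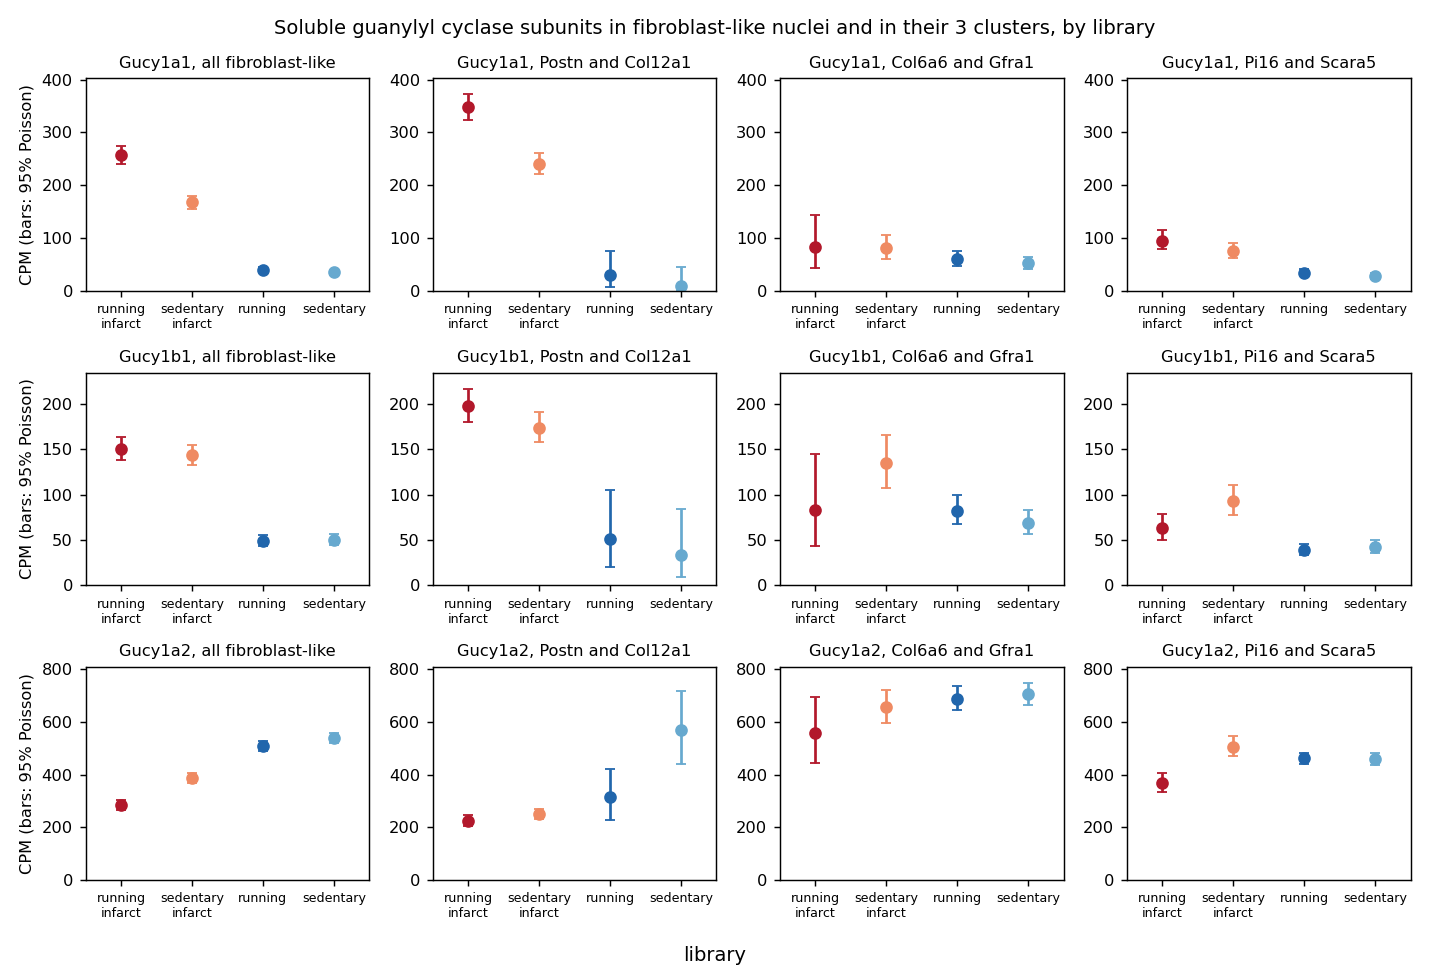
CPM of Gucy1a1, Gucy1b1 and Gucy1a2 (top to bottom) in all fibroblast-like nuclei and in the clusters led by Postn and Col12a1, by Col6a6 and Gfra1 and by Pi16 and Scara5 (left to right), for running infarct, sedentary infarct, running and sedentary hearts. Points are the 1 library per group and bars its 95% Poisson interval. Gucy1a1 reached 348 CPM in running infarct and 241 in sedentary infarct nuclei of the Postn and Col12a1 cluster.

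Other fibroblast members differed by less. Adcy7 was at 297 CPM in running infarct, 313 in sedentary infarct, 139 in running and 176 in sedentary nuclei. It was 2.13-fold higher (95% interval 1.95 to 2.34) in running infarct than in running and 1.78-fold higher (95% interval 1.63 to 1.93) in sedentary infarct than in sedentary hearts. Pde7a was at 278 CPM in running infarct, 250.2 in sedentary infarct, 150.0 in running and 150.0 in sedentary nuclei. Running infarct stood 1.85-fold higher (95% interval 1.69 to 2.03) than running, and sedentary infarct 1.67-fold higher (95% interval 1.52 to 1.83) than sedentary. Pde3a was at 592 CPM in running infarct, 511 in sedentary infarct, 358 in running and 409.6 in sedentary nuclei. The running infarct library was 1.65-fold higher (95% interval 1.56 to 1.76), and in sedentary infarct 1.25-fold higher (95% interval 1.18 to 1.32). These 3 genes were higher in both infarct libraries than in either library without an infarct. On the lower side was Akap12, or gravin, an anchor of the beta-2 adrenergic receptor, at 189.9 CPM in running infarct, 206 in sedentary infarct, 337 in running and 345 in sedentary nuclei. Set against running, running infarct was 1.77-fold lower (95% interval 1.62 to 1.94), and sedentary infarct was 1.68-fold lower (95% interval 1.55 to 1.82) than sedentary. Pde1c was at 86.5 CPM in running infarct, 127 in sedentary infarct, 199.7 in running and 184 in sedentary nuclei. It was 2.31-fold lower (95% interval 2.04 to 2.62) in running infarct than in running and 1.45-fold lower (95% interval 1.31 to 1.61) in sedentary infarct than in sedentary hearts. Pde10a was at 159 CPM in running infarct, 179 in sedentary infarct, 271 in running and 272 in sedentary nuclei. Running infarct stood 1.699-fold lower (95% interval 1.54 to 1.87) than running, and sedentary infarct 1.52-fold lower (95% interval 1.39 to 1.66) than sedentary.

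For several of these genes the class value went with cluster makeup. Within the resting clusters Pde7a was 1.24-fold higher in running infarct and 1.05-fold higher in sedentary infarct, and Akap12 was 1.06-fold lower and 1.09-fold lower, so neither kept a 1.5-fold difference there. Pde3a and Pde10a also came under it in running infarct, at 1.43-fold higher and 1.297-fold lower, and so did Gucy1a2 at 1.32-fold lower. Gucy1b1 was 1.33-fold higher in running infarct, under the threshold, and 2.101-fold higher in sedentary infarct, over it. Adcy7 stayed over it, 1.76-fold higher in running infarct and 1.698-fold higher in sedentary infarct. Within the Postn cluster alone, set against the 37 nuclei of each library without an infarct, Gucy1a1 was 11.9-fold higher in running infarct and 29.3-fold higher in sedentary infarct. Those 37 nuclei had a median of 3434 UMIs each in running and 3212 in sedentary hearts. The low Gucy1a1 levels under these ratios thus rest on few UMIs, and no interval is given. In the Postn cluster Gucy1b1 was 5.27-fold higher in sedentary infarct, and Gucy1a2 1.397-fold lower in running infarct. Pde3a was 4.57-fold higher there and Pde7a 1.01-fold higher in running infarct, while in sedentary infarct Pde7a was 1.17-fold higher. Adcy7 was 1.0797-fold higher in running infarct and 1.12-fold lower in sedentary infarct, and Akap12 1.22-fold higher and 3.29-fold lower, in the same order. Over all fibroblast-like nuclei with at most 5% mitochondrial UMIs, Pde7a was 3.02-fold higher and Pde3a 1.48-fold higher in running infarct. That limit left 6656 of the 18781 kept nuclei over all clusters, and these were clustered anew. Pde10a in running infarct was 1.14-fold lower in Y-positive nuclei and 1.304-fold lower where members were among the clustering genes.

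In fibroblast-like nuclei as a whole, between running infarct and running, 8 of 46 measured members were at least 1.5-fold higher and 5 at least 1.5-fold lower, against 7.09% and 8.9% of 10077 genes. Between sedentary infarct and sedentary, 6 of 46 measured members were at least 1.5-fold higher and 3 at least 1.5-fold lower, against 6.56% and 7.5% of 10066 genes. The median log2 ratio in running infarct over running was 0.08 over the members and -0.06 over all genes, and in sedentary infarct over sedentary -0.03 over the members and -0.02 over all genes. Listed neighbours of the pathway, counted by the same rule, gave values in running infarct over running and in sedentary infarct over sedentary fibroblast-like nuclei. Receptors coupled to Gs or Gi and their G proteins had 2 higher and 4 lower of 14 measured in running infarct, and 1 higher and 4 lower of 14 measured in sedentary infarct. The CREB family and its targets had 1 higher and 5 lower of 18 measured in running infarct, and 1 higher and 3 lower of 18 measured in sedentary infarct. Substrates of the cGMP-dependent kinase had 1 higher and 0 lower of 5 measured in running infarct, and 1 higher and 0 lower of 5 measured in sedentary infarct. Kcnma1, the large-conductance potassium channel that the cGMP-dependent kinase opens, was that 1 substrate in both. It was at 417 CPM in running infarct and 37.6 CPM in running nuclei, 11.1-fold higher (95% interval 9.62 to 12.8). Without running it was at 315 CPM in sedentary infarct and 23.8 CPM in sedentary nuclei, 13.2-fold higher (95% interval 10.96 to 16.1). Kcnma1 is also among the genes that lead the Postn cluster.

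**Figure D3:**
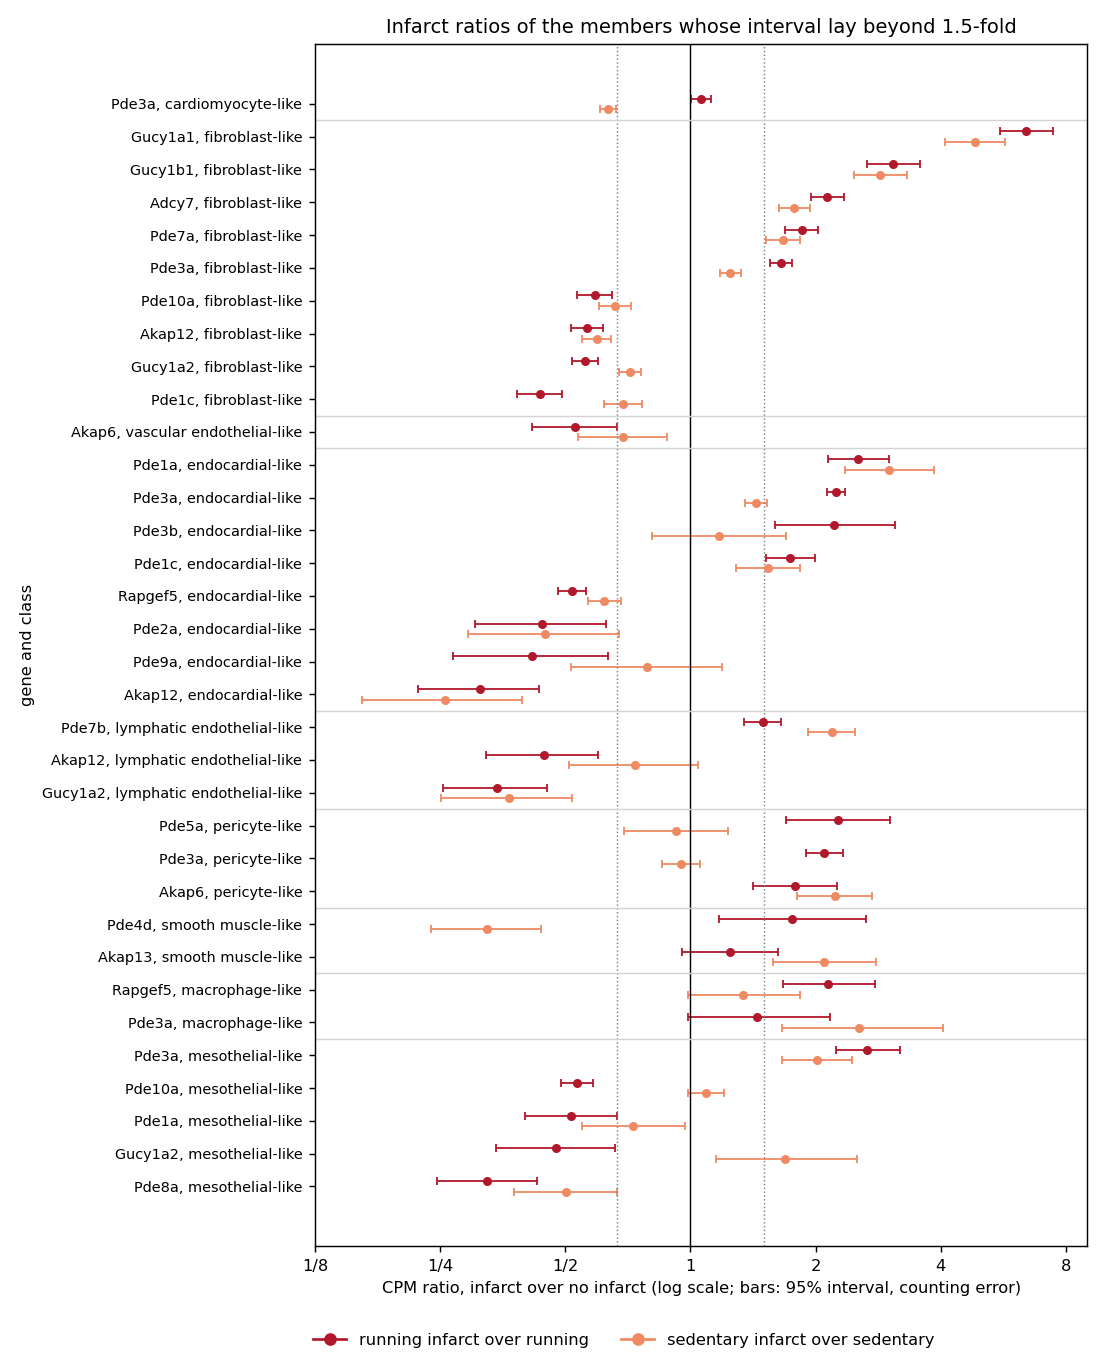
CPM ratio of infarct over no infarct on a log scale for each member and class whose 95% interval lay beyond 1.5-fold (dotted lines) in running infarct over running (dark red) or sedentary infarct over sedentary (orange). Points are ratios of 1 library over 1 library and bars cover counting error. Pairs lie on the same side of 1 in both comparisons except for 6: Pde3a in cardiomyocyte-like and pericyte-like, Pde5a in pericyte-like, Pde4d in smooth muscle-like, and Gucy1a2 and Pde10a in mesothelial-like nuclei.

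Endocardial-like nuclei, the lining of the ventricles, had higher Pde3a, Pde1a and Pde1c and lower Akap12 and Rapgef5 with an infarct. Pde3a was at 3296 CPM in running infarct, 2416 in sedentary infarct, 1474 in running and 1682 in sedentary nuclei. In running infarct it was 2.24-fold higher (95% interval 2.13 to 2.35), and in sedentary infarct 1.44-fold higher (95% interval 1.35 to 1.53). Pde1a was at 321 CPM in running infarct, 267 in sedentary infarct, 127 in running and 88.9 in sedentary nuclei. Set against running, running infarct was 2.53-fold higher (95% interval 2.14 to 2.997), and sedentary infarct was 2.999-fold higher (95% interval 2.36 to 3.84) than sedentary. Pde1c was at 379 CPM in running infarct, 321 in sedentary infarct, 218 in running and 209 in sedentary nuclei. It was 1.74-fold higher (95% interval 1.52 to 1.99) in running infarct than in running and 1.54-fold higher (95% interval 1.29 to 1.84) in sedentary infarct than in sedentary hearts. For all 3 both infarct libraries stood above both others. Pde3b was at 77.4 CPM in running infarct, 66.4 in sedentary infarct, 34.98 in running and 56.7 in sedentary nuclei, 2.21-fold higher (95% interval 1.595 to 3.11) in running infarct, where the running library was the low one. In the finer clustering that value came to 1.44-fold higher.

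The members named lower in the endocardial-like class were Akap12, Rapgef5, Pde2a and Pde9a. Akap12 was at 30.9 CPM in running infarct, 28.9 in sedentary infarct, 99.1 in running and 112 in sedentary nuclei. Running infarct stood 3.21-fold lower (95% interval 2.31 to 4.53) than running, and sedentary infarct 3.89-fold lower (95% interval 2.55 to 6.15) than sedentary. Rapgef5 was at 646 CPM in running infarct, 785 in sedentary infarct, 1244 in running and 1264 in sedentary nuclei. The running infarct library was 1.93-fold lower (95% interval 1.78 to 2.08), and in sedentary infarct 1.61-fold lower (95% interval 1.47 to 1.77). Pde2a was at 28.96 CPM in running infarct, 36.4 in sedentary infarct, 66.1 in running and 81.3 in sedentary nuclei. Set against running, running infarct was 2.28-fold lower (95% interval 1.596 to 3.31), and sedentary infarct was 2.23-fold lower (95% interval 1.49 to 3.43) than sedentary. Each of these was lower in both infarct libraries than in either library without an infarct. Pde9a, a cGMP-specific enzyme, was at 20.8 CPM in running infarct, 43.9 in sedentary infarct, 49.9 in running and 55.8 in sedentary nuclei. Running infarct stood 2.401-fold lower (95% interval 1.58 to 3.73) than running, and 1.14-fold lower among nuclei with at most 5% mitochondrial UMIs. In Y-negative nuclei Akap12 was 2.55-fold lower in sedentary infarct than in sedentary hearts. Among nuclei with at most 5% mitochondrial UMIs it was 17.03-fold lower in running infarct, from 69 UMIs in both libraries. In Y-positive nuclei running infarct over running gave Akap12 5.62-fold lower, Pde2a 3.95-fold lower, Pde9a 4.41-fold lower and Pde3b 3.35-fold higher.

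Between running infarct and running endocardial-like nuclei, 4 of 38 measured members were at least 1.5-fold higher and 11 at least 1.5-fold lower, against 5.66% and 10.6% of 5915 genes. In sedentary infarct over sedentary, 3 of 34 measured members were at least 1.5-fold higher and 8 at least 1.5-fold lower, against 5.91% and 6.86% of 4385 genes. The median log2 ratio in running infarct over running was -0.20 over the members and -0.11 over all genes, where genes as a whole stood below 0, and in sedentary infarct over sedentary -0.10 over the members and -0.04 over all genes. The fibroblast markers read in these nuclei summed to 2464 CPM in running infarct, 2418 in sedentary infarct, 1985 in running and 2099 in sedentary nuclei. The endocardial markers summed to 14642 CPM in running infarct, 12688 in sedentary infarct, 10599.5 in running and 10927 in sedentary nuclei. Both sums were higher with an infarct, and their part was not tested. Among listed neighbours, Chrm2, the Gi-coupled muscarinic receptor that lowers cAMP, was at 351 CPM in sedentary infarct and 71.8 CPM in sedentary nuclei, 4.89-fold higher (95% interval 3.797 to 6.36). Nr4a1, a nuclear receptor gene induced through CREB, was at 6.296 CPM in running infarct and 145 CPM in running nuclei, 23.05-fold lower (95% interval 12.3 to 48.7). The sedentary library held 22.7 CPM of Nr4a1, so the running library stood apart from it too. Trpc6, a cation channel that the cGMP-dependent kinase inhibits, was at 64.2 CPM in running infarct and 1.94 CPM in running nuclei, 33.05-fold higher (95% interval 10.99 to 163), from 102 UMIs in running infarct and 3 in running nuclei. It was 1 of 4 measured genes of its list, and in sedentary infarct over sedentary 0 higher and 0 lower of 2 measured were counted for that list.

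**Figure D4:**
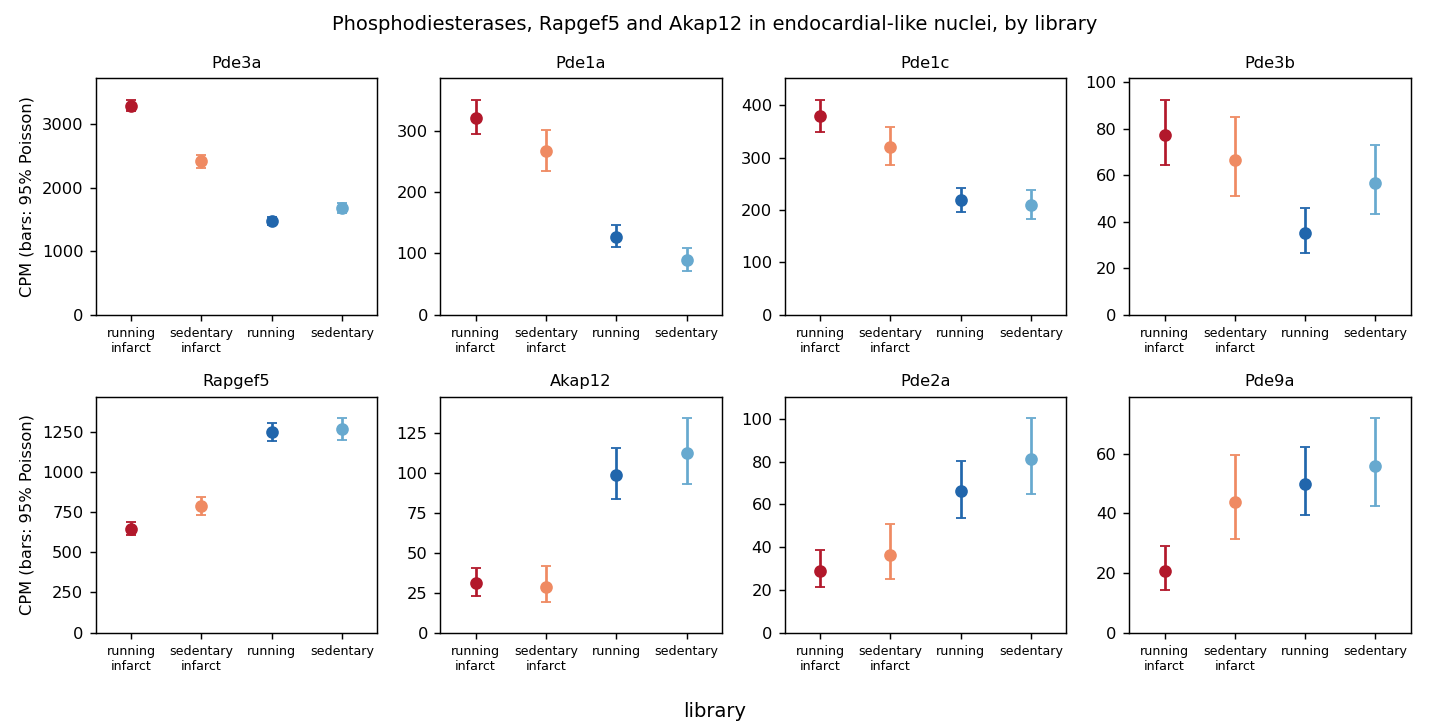
CPM of 6 phosphodiesterases, Rapgef5 and Akap12 in endocardial-like nuclei of running infarct, sedentary infarct, running and sedentary hearts, 1 library each, with 95% Poisson intervals. Pde3a, Pde1a and Pde1c stand higher in both infarct libraries, and Rapgef5, Akap12 and Pde2a lower.

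Pde3a was the member named in the most classes. Besides fibroblast-like and endocardial-like nuclei, mesothelial-like nuclei held 706 CPM in running infarct, 566 in sedentary infarct, 265 in running and 281 in sedentary nuclei. It was 2.66-fold higher (95% interval 2.24 to 3.19) in running infarct than in running and 2.01-fold higher (95% interval 1.66 to 2.45) in sedentary infarct than in sedentary hearts. Pericyte-like nuclei held 1453 CPM in running infarct, 1109 in sedentary infarct, 692 in running and 1171 in sedentary nuclei. Running infarct stood 2.099-fold higher (95% interval 1.89 to 2.33) than running, and sedentary infarct 1.06-fold lower (95% interval 0.951 to 1.17) than sedentary. Macrophage-like nuclei held 85.7 CPM in running infarct, 152 in sedentary infarct, 59.3 in running and 59.6 in sedentary nuclei. In sedentary infarct it was 2.54-fold higher (95% interval 1.66 to 4.04), and in running infarct 1.44-fold higher (95% interval 0.987 to 2.17). Cardiomyocyte-like nuclei differed from these, with the sedentary library highest at 880.0 CPM in running infarct, 736 in sedentary infarct, 831 in running and 1160.5 in sedentary nuclei. Sedentary infarct stood 1.58-fold lower (95% interval 1.51 to 1.65) than sedentary, and running infarct 1.06-fold higher (95% interval 1.002 to 1.12) than running. Smooth muscle-like nuclei, where Pde3a led, held 2778 CPM in running infarct, 2572 in sedentary infarct, 2362 in running and 3081 in sedentary nuclei, and no comparison passed 1.5-fold there.

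Pericyte-like nuclei of running infarct were shallow: the median was 1528 UMIs in running infarct, 3173 in sedentary infarct, 4101 in running and 3633 in sedentary hearts. With at least 800 genes a nucleus, Pde3a in pericyte-like nuclei was 1.27-fold higher in running infarct than in running hearts. In the finer clustering it was 1.34-fold higher. In Y-negative cardiomyocyte-like nuclei Pde3a was 1.47-fold lower in sedentary infarct than in sedentary hearts, under the threshold.

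**Figure D5:**
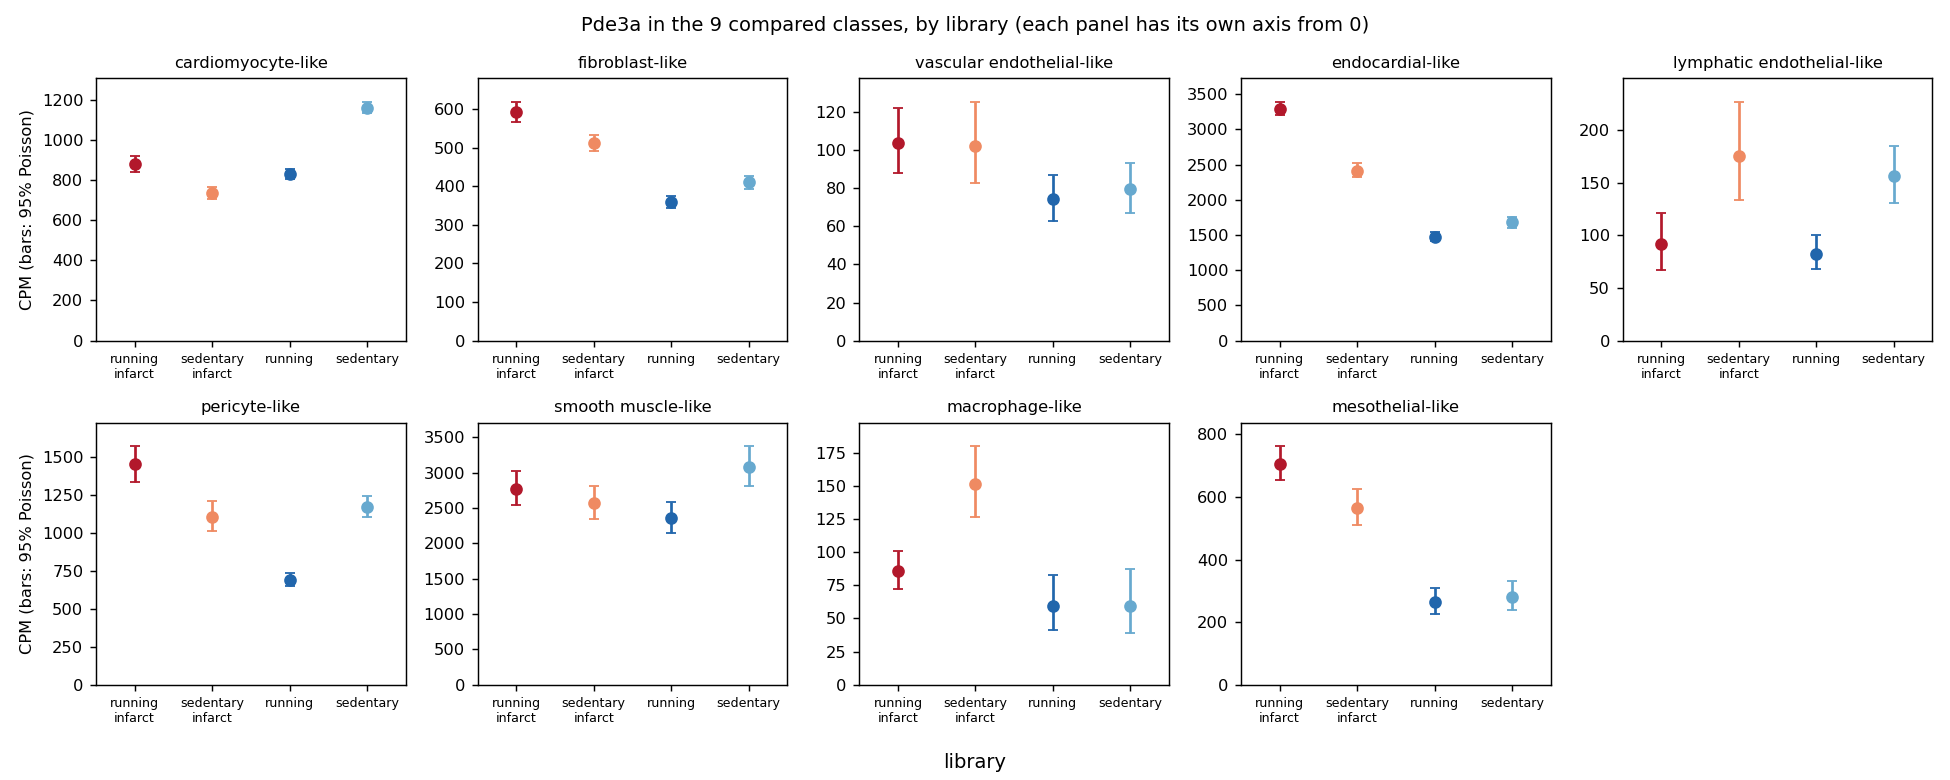
CPM of Pde3a in each of the 9 compared classes for running infarct, sedentary infarct, running and sedentary hearts, 1 library each, with 95% Poisson intervals and an axis from 0 in every panel. Both infarct libraries lie above both others in fibroblast-like, endocardial-like, mesothelial-like, macrophage-like and vascular endothelial-like nuclei, and below the sedentary library in cardiomyocyte-like nuclei.

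Cardiomyocyte-like nuclei differed little after an infarct in these genes. Between running infarct and running, 2 of 39 measured members were at least 1.5-fold higher and 1 at least 1.5-fold lower, against 5.42% and 6.78% of 7847 genes. With sedentary infarct over sedentary, 2 of 40 measured members were at least 1.5-fold higher and 2 at least 1.5-fold lower, against 5.64% and 5.5% of 8623 genes, shares near the background. The median log2 ratio in running infarct over running was -0.02 over the members and -0.02 over all genes, and in sedentary infarct over sedentary -0.05 over the members and 0.02 over all genes. Prkar1a, the regulatory subunit that holds kinase A inactive until cAMP binds, was at 236 CPM in running infarct, 152 in sedentary infarct, 144 in running and 187 in sedentary nuclei. In running infarct it was 1.63-fold higher (95% interval 1.45 to 1.83), and in sedentary infarct 1.23-fold lower (95% interval 1.11 to 1.37). Pde11a was at 30.6 CPM in running infarct, 41.6 in sedentary infarct, 58.96 in running and 62.3 in sedentary nuclei. Running infarct stood 1.92-fold lower (95% interval 1.46 to 2.56) than running. As a share of the class, a low-depth cluster made up 51.1% in running infarct, 20.1% in sedentary infarct, 15.4% in running and 12.3% in sedentary nuclei. Of the 52 named values, only Pde3a in sedentary infarct over sedentary is of this class, and without the low-depth cluster it stayed within its own interval. The other named values are of other classes, so leaving that cluster out could not change them. Prkar1a and Pde11a are not among the 52 in this class and were not recomputed without it.

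Among the 15 listed kinase A substrates of the cardiomyocyte, 0 higher and 1 lower of 13 measured were counted in running infarct over running and 2 higher and 0 lower of 13 measured in sedentary infarct over sedentary cardiomyocyte-like nuclei. The CREB list gave 1 higher and 6 lower of 17 measured in running infarct and 2 higher and 3 lower of 17 measured in sedentary infarct. The shares over all genes in these comparisons are those given with the members. Nr4a1 was at 32.6 CPM in running infarct and 326 CPM in running nuclei, 10.02-fold lower (95% interval 7.85 to 12.99). Nr4a1 was at 62.2 CPM in sedentary infarct and 41.1 CPM in sedentary nuclei, 1.52-fold higher (95% interval 1.26 to 1.82), so the running library alone stood apart. Its relative Nr4a3 was at 6.399 CPM in sedentary infarct and 28.5 CPM in sedentary nuclei, 4.46-fold lower (95% interval 2.86 to 7.29). The lists of cGMP input (natriuretic peptide receptors and nitric oxide synthases) and of kinase inhibitors, other effectors and cAMP export gave 0 higher and 1 lower of 2 measured and 2 higher and 0 lower of 17 measured in sedentary infarct. In running infarct they gave 0 higher and 0 lower of 2 measured and 0 higher and 0 lower of 17 measured. Fibroblast-like nuclei held Nr4a3 at 4.89 CPM in sedentary infarct and 21.2 CPM in sedentary nuclei, 4.34-fold lower (95% interval 2.72 to 7.21).

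Vascular and lymphatic endothelial-like nuclei held few named differences. In vascular endothelial-like nuclei, between running infarct and running, 3 of 37 measured members were at least 1.5-fold higher and 2 at least 1.5-fold lower, against 5.58% and 9.39% of 6464 genes. For sedentary infarct over sedentary, 1 of 34 measured members was at least 1.5-fold higher and 1 at least 1.5-fold lower, against 5.86% and 7.18% of 5614 genes. Akap6 was the named member there, at 70.4 CPM in running infarct, 98.1 in sedentary infarct, 134 in running and 142 in sedentary nuclei. Running infarct was 1.899-fold lower (95% interval 1.51 to 2.41) than running. With at most 5% mitochondrial UMIs it was 3.55-fold lower, and in Y-positive nuclei 2.99-fold lower. The summed cardiomyocyte markers in this class stood at 2523 CPM in running infarct, 2661 in sedentary infarct, 3967 in running and 4337 in sedentary nuclei. As a share of the class, a cluster led by Gja5, a gene of arterial endothelium, made up 8.396% in running infarct, 11.7% in sedentary infarct, 29.6% in running and 28.8% in sedentary nuclei. In lymphatic endothelial-like nuclei Gucy1a2 was at 108 CPM in running infarct, 107 in sedentary infarct, 318 in running and 293 in sedentary nuclei. Set against running, running infarct was 2.93-fold lower (95% interval 2.22 to 3.93), and sedentary infarct was 2.73-fold lower (95% interval 1.92 to 3.99) than sedentary. Pde7b, a cAMP-specific enzyme, was at 1117 CPM in running infarct, 1295 in sedentary infarct, 749 in running and 593 in sedentary nuclei. In sedentary infarct it was 2.18-fold higher (95% interval 1.92 to 2.49), and in running infarct 1.49-fold higher (95% interval 1.34 to 1.65). Akap12 was at 97.05 CPM in running infarct, 128 in sedentary infarct, 219 in running and 174 in sedentary nuclei. The running infarct library was 2.25-fold lower (95% interval 1.67 to 3.099) than in running hearts.

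The lymphatic Gucy1a2 value depends on which nuclei are kept: among those with at most 5% mitochondrial UMIs it was 1.02-fold lower in running infarct than in running hearts, and in Y-positive nuclei 1.503-fold lower. In Y-negative nuclei it was 5.13-fold lower. Sedentary infarct moved the other way under the same limits. It was 19.6-fold lower than sedentary with at most 5% mitochondrial UMIs, from 124 UMIs in both libraries, and 7.96-fold lower in Y-positive nuclei. Y-positive nuclei of this class numbered 10 in sedentary infarct and 86 in sedentary hearts. In these lymphatic endothelial-like nuclei, between running infarct and running, 2 of 31 measured members were at least 1.5-fold higher and 6 at least 1.5-fold lower, against 4.82% and 8.48% of 4208 genes. Between sedentary infarct and sedentary, 2 of 26 measured members were at least 1.5-fold higher and 4 at least 1.5-fold lower, against 5.11% and 8.02% of 2918 genes. The fibroblast markers, of a class rich in Gucy1a2, summed to 1452 CPM in running infarct, 1399 in sedentary infarct, 2143 in running and 1510.4 in sedentary nuclei.

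Mesothelial-like nuclei, the outer covering of the heart, had lower Pde8a, a cAMP-specific enzyme, beside the higher Pde3a. Pde8a was at 87.2 CPM in running infarct, 123 in sedentary infarct, 268 in running and 246 in sedentary nuclei. It was 3.08-fold lower (95% interval 2.35 to 4.07) in running infarct than in running and 1.996-fold lower (95% interval 1.504 to 2.66) in sedentary infarct than in sedentary hearts. Pde10a was at 999 CPM in running infarct, 1414 in sedentary infarct, 1870.2 in running and 1298 in sedentary nuclei, and the running library was the highest of the 4. Running infarct was 1.87-fold lower (95% interval 1.71 to 2.04) than running. Gucy1a2 was at 71.2 CPM in running infarct, 132 in sedentary infarct, 150.0 in running and 78.2 in sedentary nuclei. Running infarct stood 2.11-fold lower (95% interval 1.52 to 2.93) than running, and sedentary infarct 1.69-fold higher (95% interval 1.15 to 2.52) than sedentary. Pde1a was at 122 CPM in running infarct, 145 in sedentary infarct, 237 in running and 199 in sedentary nuclei. Running infarct stood 1.94-fold lower (95% interval 1.503 to 2.497) than running. Of these 4 genes, Pde8a and Pde1a were lower in both infarct libraries than in either library without an infarct. In Y-positive mesothelial-like nuclei Pde10a was 1.202-fold higher and Pde1a 1.38-fold lower in running infarct than in running hearts. In Y-negative ones Gucy1a2 was 1.33-fold lower. Y-negative Pde10a was 2.82-fold lower and Y-positive Gucy1a2 3.96-fold lower. With at most 5% mitochondrial UMIs Pde8a was 5.904-fold lower in running infarct and 3.27-fold lower in sedentary infarct, and in Y-positive nuclei 1.44-fold lower in sedentary infarct. The summed fibroblast markers in mesothelial-like nuclei were at 6820.3 CPM in running infarct, 6598 in sedentary infarct, 4964 in running and 5380.1 in sedentary nuclei. Between running infarct and running, 1 of 26 measured members was at least 1.5-fold higher and 5 at least 1.5-fold lower, against 9.03% and 7.87% of 3520 genes. In sedentary infarct over sedentary, 3 of 24 measured members were at least 1.5-fold higher and 2 at least 1.5-fold lower, against 8.72% and 7.3% of 2903 genes.

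Pericyte-like nuclei had no member called lower after an infarct. Between running infarct and running, 7 of 37 measured members were at least 1.5-fold higher and 0 at least 1.5-fold lower, against 6.5% and 9.93% of 4218 genes. With sedentary infarct over sedentary, 4 of 35 measured members were at least 1.5-fold higher and 0 at least 1.5-fold lower, against 4.41% and 7.49% of 3512 genes. Pde5a was at 202 CPM in running infarct, 153 in sedentary infarct, 89.4 in running and 166 in sedentary nuclei. In running infarct it was 2.26-fold higher (95% interval 1.69 to 3.01), and 1.29-fold higher among nuclei with at most 5% mitochondrial UMIs. Akap6 was at 279.8 CPM in running infarct, 417 in sedentary infarct, 157 in running and 188 in sedentary nuclei. Sedentary infarct stood 2.22-fold higher (95% interval 1.81 to 2.74) than sedentary, and running infarct 1.78-fold higher (95% interval 1.41 to 2.25) than running. The summed cardiomyocyte markers in these nuclei were at 3517 CPM in running infarct, 3616 in sedentary infarct, 2555 in running and 3019 in sedentary nuclei, and in Y-positive nuclei Akap6 was 1.25-fold higher in sedentary infarct. With at most 5% mitochondrial UMIs Akap6 was 1.43-fold higher in sedentary infarct, under the threshold. Gucy1a1 was at 454 CPM in running infarct, 498 in sedentary infarct, 276 in running and 345 in sedentary nuclei. Its partner Gucy1b1, given above, also stood higher in both infarct libraries of this class. The summed pericyte markers were at 6821 CPM in running infarct, 9110.0 in sedentary infarct, 4968 in running and 6316 in sedentary nuclei.

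Smooth muscle-like nuclei gave values from few nuclei. Between running infarct and running, 1 of 13 measured members was at least 1.5-fold higher and 0 at least 1.5-fold lower, against 16% and 14.6% of 680 genes. For sedentary infarct over sedentary, 2 of 13 measured members were at least 1.5-fold higher and 2 at least 1.5-fold lower, against 15.1% and 15.7% of 568 genes. Pde4d was at 378 CPM in running infarct, 347 in sedentary infarct, 216 in running and 1073 in sedentary nuclei. In sedentary infarct it was 3.09-fold lower (95% interval 2.29 to 4.21), and in running infarct 1.75-fold higher (95% interval 1.17 to 2.65). The 10 nuclei richest in Pde4d held 95.7% of its UMIs in the sedentary library. The summed cardiomyocyte markers were at 6421 CPM in running infarct, 6202 in sedentary infarct, 10284 in running and 14780.2 in sedentary nuclei. Both Pde4d and these markers were highest in the sedentary library. In the running library Pde4d was lowest, while the markers stood above both infarct libraries. The part of these markers in the Pde4d values was not tested. With at most 5% mitochondrial UMIs Pde4d was 1.73-fold higher in sedentary infarct than in sedentary hearts. Akap13 was at 707 CPM in running infarct, 992 in sedentary infarct, 568 in running and 474 in sedentary nuclei, 2.09-fold higher (95% interval 1.58 to 2.79) in sedentary infarct. The summed fibroblast markers in these nuclei were at 2372 CPM in running infarct, 3995 in sedentary infarct, 2756 in running and 1942 in sedentary nuclei, and Akap13 is set apart in fibroblast-like nuclei. Their part was not tested. In Y-positive nuclei Akap13 was 5.57-fold lower in sedentary infarct, from only 2 such nuclei in sedentary infarct and 17 in sedentary hearts. Pde4d in sedentary infarct was 1.44-fold higher in Y-negative nuclei and 1.92-fold lower with every nucleus weighed the same.

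Macrophage-like nuclei named Rapgef5 beside Pde3a. Rapgef5 was at 273 CPM in running infarct, 181 in sedentary infarct, 127 in running and 135 in sedentary nuclei. The running infarct library was 2.14-fold higher (95% interval 1.67 to 2.78), and in sedentary infarct 1.34-fold higher (95% interval 0.984 to 1.83). Between running infarct and running, 3 of 29 measured members were at least 1.5-fold higher and 2 at least 1.5-fold lower, against 8.12% and 6.9% of 4867 genes. Between sedentary infarct and sedentary, 4 of 20 measured members were at least 1.5-fold higher and 2 at least 1.5-fold lower, against 8.4% and 6.29% of 3273 genes. The macrophage markers themselves summed to 6989.7 CPM in running infarct, 7825 in sedentary infarct, 9795 in running and 11203 in sedentary nuclei. In Y-positive nuclei Rapgef5 was 3.26-fold higher in running infarct and Pde3a 4.94-fold higher in sedentary infarct.

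Running against sedentary hearts without an infarct gave fewer calls in most classes. In cardiomyocyte-like nuclei 1 of 40 measured members was at least 1.5-fold higher and 0 at least 1.5-fold lower, against 3.99% and 2.05% of 9201 genes. In fibroblast-like nuclei 1 of 48 measured members was at least 1.5-fold higher and 0 at least 1.5-fold lower, against 2.38% and 1.43% of 10408 genes. In endocardial-like nuclei 1 of 38 measured members was at least 1.5-fold higher and 2 at least 1.5-fold lower, against 3.17% and 2.41% of 5355 genes. In each of these 3 classes the member called higher was Pde6a, a photoreceptor phosphodiesterase subunit. Cardiomyocyte-like Pde6a stood at 49.6 CPM in running infarct, 41.6 in sedentary infarct, 61.97 in running and 40.8 in sedentary nuclei. Fibroblast-like nuclei held 31.8 CPM in running infarct, 31.6 in sedentary infarct, 46.9 in running and 29.2 in sedentary nuclei. Endocardial-like nuclei held 23.3 CPM in running infarct, 35.3 in sedentary infarct, 51.2 in running and 30.3 in sedentary nuclei, and vascular endothelial-like nuclei 33.8 CPM in running infarct, 40.3 in sedentary infarct, 63.7 in running and 33.8 in sedentary nuclei. The running library was the highest in each of these 4 classes. Pde6a was also among the leading genes of a low-depth cluster that is outside the compared classes.

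Pericyte-like nuclei were the class with the most calls between running and sedentary hearts: 2 of 42 measured members were at least 1.5-fold higher and 7 at least 1.5-fold lower, against 4.05% and 2.61% of 5181 genes. The median log2 ratio was -0.07 over the members and 0.02 over all genes. Pde8b, set apart in this class, was at 846 CPM in running infarct, 907 in sedentary infarct, 631 in running and 1109 in sedentary nuclei, 1.76-fold lower (95% interval 1.605 to 1.93) in running than in sedentary hearts. Pde3a was 1.69-fold lower (95% interval 1.55 to 1.85). Rapgef4 was at 174 CPM in running infarct, 132 in sedentary infarct, 147 in running and 70.3 in sedentary nuclei, 2.09-fold higher (95% interval 1.58 to 2.803). The running library also had the lowest summed pericyte markers in this class and the highest fibroblast markers, at 2760.2 CPM in running infarct, 3318 in sedentary infarct, 4907 in running and 4319 in sedentary nuclei, and their part was not tested.

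These pericyte values moved with the choice of nuclei. With at least 800 genes a nucleus Pde8b was 1.33-fold lower, in Y-negative nuclei 1.36-fold lower, and Pde3a in Y-negative nuclei 1.44-fold lower, all lower but under the 1.5-fold threshold. Rapgef4 changed its side, to 1.67-fold lower with at most 5% mitochondrial UMIs. It was 1.15-fold higher with at least 800 genes, 1.33-fold higher in the finer clustering and 1.27-fold higher with every nucleus weighed the same. Pde8b was 1.35-fold lower with at most 5% mitochondrial UMIs and 1.41-fold lower in the finer clustering.

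In the other classes between running and sedentary hearts, smooth muscle-like nuclei named Pde4d, 4.98-fold lower (95% interval 3.51 to 7.19), with the marker levels given above. That difference came to 1.11-fold lower with at most 5% mitochondrial UMIs and to 1.05-fold lower in Y-negative nuclei. It was 13.3-fold lower in Y-positive nuclei, 2.15-fold lower with doublets kept and 1.93-fold lower with every nucleus weighed the same. There 0 of 13 measured members were at least 1.5-fold higher and 1 at least 1.5-fold lower, against 4.72% and 4.72% of 593 genes. In vascular endothelial-like nuclei 2 of 40 measured members were at least 1.5-fold higher and 1 at least 1.5-fold lower, against 3.45% and 2.28% of 6927 genes. In lymphatic endothelial-like nuclei 1 of 32 measured members was at least 1.5-fold higher and 3 at least 1.5-fold lower, against 3.89% and 2.81% of 4727 genes. In macrophage-like nuclei 3 of 18 measured members were at least 1.5-fold higher and 0 at least 1.5-fold lower, against 4.31% and 2.85% of 2598 genes. In mesothelial-like nuclei 2 of 24 measured members were at least 1.5-fold higher and 1 at least 1.5-fold lower, against 3.95% and 4.66% of 2660 genes.

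Among listed neighbours in running against sedentary hearts, the intervals farthest from even belonged to the Nr4a genes of the CREB list. In cardiomyocyte-like nuclei Nr4a1 was at 326 CPM in running and 41.1 CPM in sedentary nuclei, 7.94-fold higher (95% interval 6.98 to 9.07). Endocardial-like Nr4a1 was at 145 CPM in running and 22.7 CPM in sedentary nuclei, 6.396-fold higher (95% interval 4.19 to 10.2). Pericyte-like Nr4a1 was at 70.4 CPM in running and 22.02 CPM in sedentary nuclei, 3.198-fold higher (95% interval 1.98 to 5.41). Its relative Nr4a2 was at 97.8 CPM in running and 19.9 CPM in sedentary nuclei, 4.93-fold higher (95% interval 3.11 to 8.19), in the endocardial-like class. The whole CREB list gave 2 higher and 0 lower of 18 measured in cardiomyocyte-like nuclei, against 3.99% and 2.05% of 9201 genes. In endocardial-like nuclei it gave 3 higher and 0 lower of 14 measured, against 3.17% and 2.41% of 5355 genes.

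Running infarct against sedentary infarct hearts named 4 pairs of gene and class. Gucy1a2 was at 34.6 CPM in running infarct, 83.5 in sedentary infarct, 56.4 in running and 56.7 in sedentary nuclei of the endocardial-like class, 2.41-fold lower (95% interval 1.69 to 3.47) in running infarct than in sedentary infarct. The same subunit in macrophage-like nuclei was at 34.9 CPM in running infarct, 76.9 in sedentary infarct, 69.8 in running and 32.1 in sedentary nuclei, 2.21-fold lower (95% interval 1.52 to 3.200). Pde1a in macrophage-like nuclei was at 56.3 CPM in running infarct, 120.0 in sedentary infarct, 54.1 in running and 66.5 in sedentary nuclei, 2.13-fold lower (95% interval 1.59 to 2.86), but 1.03-fold higher in the finer clustering. In Y-positive nuclei it was 3.84-fold lower. Markers of some other classes in macrophage-like nuclei, fibroblast and pericyte among them, differed the same way as both genes. The vascular endothelial markers went the other way, at 1204 CPM in running infarct and 1142 in sedentary infarct. So did the lymphatic endothelial markers, at 184 and 168 CPM, and the mesothelial markers, at 102 and 48.95 CPM, in the same order. The fibroblast markers summed to 1675 CPM in running infarct, 2339 in sedentary infarct, 1808 in running and 1634 in sedentary nuclei, and the pericyte markers to 155 CPM in running infarct, 265 in sedentary infarct, 204 in running and 138 in sedentary nuclei. Their part was not tested. Pde4d in pericyte-like nuclei was at 550.2 CPM in running infarct, 294 in sedentary infarct, 406 in running and 349 in sedentary nuclei, 1.87-fold higher (95% interval 1.51 to 2.33). Ryr2, a cardiomyocyte marker and kinase A substrate, was there at 576 CPM in running infarct and 166 CPM in sedentary infarct nuclei, 3.47-fold higher (95% interval 2.68 to 4.53). The summed cardiomyocyte markers did not differ that way, at 3517 CPM in running infarct and 3616 in sedentary infarct nuclei. The part of cardiomyocyte RNA in the Pde4d value was not tested. In Y-positive pericyte-like nuclei Pde4d was 1.35-fold higher, under the threshold. In Y-negative ones it was 2.82-fold higher.

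Counts in this comparison stayed small. In endocardial-like nuclei 1 of 31 measured members was at least 1.5-fold higher and 3 at least 1.5-fold lower, against 2.74% and 5.19% of 5044 genes. In macrophage-like nuclei 3 of 33 measured members were at least 1.5-fold higher and 3 at least 1.5-fold lower, against 2.67% and 3.93% of 5312 genes. In pericyte-like nuclei 1 of 29 measured members was at least 1.5-fold higher and 0 at least 1.5-fold lower, against 6.13% and 5.5% of 2218 genes. In fibroblast-like nuclei 2 of 46 measured members were at least 1.5-fold higher and 0 at least 1.5-fold lower, against 2.26% and 2.08% of 9572 genes. Those higher were Gucy1a1, which was 1.53-fold higher (95% interval 1.39 to 1.69) in running infarct than in sedentary infarct, and Pde8b, at 29.7 CPM in running infarct, 14.5 in sedentary infarct, 18.9 in running and 19.8 in sedentary nuclei. In cardiomyocyte-like nuclei 2 of 35 measured members were at least 1.5-fold higher and 0 at least 1.5-fold lower, against 3.79% and 3.26% of 6862 genes. The higher members were Prkar1a, 1.56-fold higher (95% interval 1.37 to 1.76), and Pde1a, at 26.3 CPM in running infarct, 17.2 in sedentary infarct, 14.3 in running and 13.02 in sedentary nuclei. In vascular endothelial-like nuclei 0 of 33 measured members were at least 1.5-fold higher and 0 at least 1.5-fold lower, against 2.09% and 3.17% of 4922 genes. In lymphatic endothelial-like nuclei 0 of 16 measured members were at least 1.5-fold higher and 1 at least 1.5-fold lower, against 3.41% and 3.27% of 2113 genes. In smooth muscle-like nuclei 1 of 13 measured members was at least 1.5-fold higher and 0 at least 1.5-fold lower, against 9.09% and 7.9% of 671 genes. In mesothelial-like nuclei 0 of 26 measured members were at least 1.5-fold higher and 3 at least 1.5-fold lower, against 3.25% and 4.49% of 3718 genes. Per1, a clock gene induced through CREB, was the listed neighbour with an interval beyond 1.5-fold in mesothelial-like nuclei, at 57.4 CPM in running infarct and 123 CPM in sedentary infarct nuclei, 2.15-fold lower (95% interval 1.51 to 3.08).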

How the data were processed

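Single-nucleus libraries (10x Genomics 3′ v3.1 chemistry, per the labels' protocols) were deposited as count matrices: whole UMI counts per gene and barcode, which the authors made with Cell Ranger 7.1 on GRCm39, per the submitters' processing notes. Whether intronic reads were counted is not given in the sources used here. The filter asked for 300 genes or more and no more than 20% of UMIs from mitochondrially encoded genes. Scrublet's automatic threshold called 0 doublets, so the highest scores were removed at 0.8% per 1000 barcodes (192 in running infarct, 82 in sedentary infarct, 301 in running and 228 in sedentary hearts). Nuclei were clustered with scanpy 1.11.5 (3000 variable genes without the members, 40 components, 15 neighbours, Leiden resolution 1, igraph 0.11.9), and clusters were named from marker lists. Clusters with a median Scrublet score of at least 0.1 were left out of the classes, also where doublets were kept. They held 442 nuclei in running infarct, 318 in sedentary infarct, 515 in running and 426 in sedentary hearts. Their median depth by library was 11690 to 15281.5 UMIs. Counts were summed by class and library and given as CPM with exact Poisson intervals. Ratios have exact conditional binomial intervals, computed with scipy 1.17.1. They were checked on simulated independent Poisson counts, the model they assume. That check does not cover counts gathered in few nuclei. No test was run, because each group is 1 pooled library.

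The members, gene lists, class markers and thresholds were chosen with earlier results of these data known. Values in every library are given for members set apart in a class and for those with a whole interval beyond 1.5-fold; neighbours of the pathway are up to 4 per comparison with the interval bound farthest from even. The lists were Gs- and Gi-coupled receptor input, cGMP input, kinase inhibitors with other effectors and cAMP export, kinase A substrates of the cardiomyocyte, kinase G substrates of smooth muscle, and the CREB family with its targets. Y-linked transcripts sorted nuclei into Y-positive (2 UMIs or more) and Y-negative (0). Promoter windows are from RefSeq (GRCm38.p6), a different build from the count tables, so positions apply to the windows only.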

Additional observations from a re-analysis of the deposited data

Results flagged for a closer look

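For 6 pairs of member and class the whole interval lay above even in one infarct comparison and below even in the other, with both ratios at least 1.5-fold apart. Other measured pairs on opposite sides of even had an interval that spanned it or ratios less far apart. With 1 library per group the difference itself was not tested. Prkar1a in cardiomyocyte-like nuclei was 1.63-fold higher (95% interval 1.45 to 1.83) in running infarct than in running hearts and 1.23-fold lower (95% interval 1.11 to 1.37) in sedentary infarct than in sedentary hearts, a log2 difference of 1.01. Pde3a in the same class was 1.06-fold higher (95% interval 1.002 to 1.12) in running infarct and 1.58-fold lower (95% interval 1.51 to 1.65) in sedentary infarct, a log2 difference of 0.74. In both genes the running library lay below the sedentary library among the hearts without an infarct.

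Gucy1a2 differed in 2 classes. In endocardial-like nuclei it was 1.63-fold lower (95% interval 1.15 to 2.32) in running infarct and 1.47-fold higher (95% interval 1.04 to 2.097) in sedentary infarct, a log2 difference of -1.26. In mesothelial-like nuclei it was 2.11-fold lower (95% interval 1.52 to 2.93) in running infarct and 1.69-fold higher (95% interval 1.15 to 2.52) in sedentary infarct, a log2 difference of -1.83. Pde8b in pericyte-like nuclei was 1.34-fold higher (95% interval 1.18 to 1.52) in running infarct and 1.22-fold lower (95% interval 1.09 to 1.37) in sedentary infarct, a log2 difference of 0.71. Pde4d in smooth muscle-like nuclei was 1.75-fold higher (95% interval 1.17 to 2.65) in running infarct and 3.09-fold lower (95% interval 2.29 to 4.21) in sedentary infarct, a log2 difference of 2.44, in 30 to 49 nuclei per library and beside cardiomyocyte marker levels that differed the same way in sedentary infarct.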

How the results depend on the processing

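Over the 9 classes, called pairs of gene and class numbered 31 higher and 32 lower of 296 measured in running infarct over running. They numbered 27 and 24 of 272 in sedentary infarct over sedentary, and 13 and 15 of 295 in running over sedentary. In running infarct over sedentary infarct they were 10 and 10 of 262. Requiring only 20 UMIs gave 58 and 64 of 426, 60 and 50 of 408, 36 and 33 of 415, and 32 and 34 of 413, in that order of comparisons. Requiring 500 UMIs gave 20 and 8 of 124, 11 and 7 of 116, 1 and 2 of 130, and 4 and 1 of 105, so these counts follow the minimum. Shares over all genes were computed per class at the 100 UMI minimum only, as given above. Running over sedentary gave 7 higher of 147 measured with at most 5% mitochondrial UMIs. It gave 5 lower of 240 at Leiden resolution 0.5 (where neither mural class was named) and 9 lower of 274 at resolution 2. In Y-negative nuclei it gave 6 higher and 4 lower of 190. Running infarct over sedentary infarct gave 5 higher of 240 with at least 800 genes and 16 higher of 262 with every nucleus weighed the same. Running infarct over running gave 20 lower of 208 in Y-negative nuclei. Set apart members numbered 25 of 60, against 21.5% of all genes tested. In Y-positive nuclei they numbered 13 of 59, against 12.9% of all genes. With 1 library left out they numbered 26 to 32 of 60, against 26.3% to 27.4%, so the share over all genes moved the same way. Other counts of called or set apart pairs stayed within 1.5 times. The limit of at most 5% mitochondrial UMIs left 6656 of 18781 nuclei, clustered anew, and mitochondrial shares differed between libraries. Of the named values, 28 of 52 moved beyond their counting interval and 2 turned with at most 5% mitochondrial UMIs, 13 of these by over 1.5-fold. In Y-positive nuclei 28 of 50 moved and 2 turned, 15 by over 1.5-fold. In Y-negative nuclei 20 of 52 moved and 1 turned, 7 by over 1.5-fold.

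Directions turned in 8 of the recomputed values, on the log2 scale. With at most 5% mitochondrial UMIs Pde4d in smooth muscle-like nuclei came to 0.79 in sedentary infarct and Rapgef4 in pericyte-like nuclei to -0.74 in running over sedentary. In Y-negative nuclei Pde4d in smooth muscle-like nuclei came to 0.53. In Y-positive nuclei Akap13 in smooth muscle-like nuclei came to -2.48 in sedentary infarct and Pde10a in mesothelial-like nuclei to 0.27 in running infarct. Pde1a in macrophage-like nuclei came to 0.048 at resolution 2. Within the Postn cluster Adcy7 came to -0.17 in sedentary infarct and Akap12 to 0.29 in running infarct. The cause was not tested, except that the last 2 compare nuclei of 1 cluster only. Gucy1a1 and Gucy1b1 in fibroblast-like nuclei and Pde1a, Pde3a and Akap12 in endocardial-like nuclei kept their direction under each alternative run. Those added after seeing the data were the fibroblast cluster splits, leaving out the low-depth cardiomyocyte cluster or smooth muscle-like nuclei, and the 1000 UMI minimum. No paired analysis was possible because each group is 1 library. Smooth muscle-like values rest on 30 to 49 nuclei per library, which limits their precision. Those split by Y-linked UMIs rest on fewer, with only 2 Y-positive nuclei in sedentary infarct, where Akap13 turned.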

Other observations

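Some members passed 1.5-fold in both infarct comparisons without a whole interval beyond it. They are named here after their values were seen. In endocardial-like nuclei Pde8a was at 101 CPM in running infarct, 110.3 in sedentary infarct, 165 in running and 175 in sedentary nuclei. Adcy9 was at 61.7 CPM in running infarct, 77.1 in sedentary infarct, 99.1 in running and 122 in sedentary nuclei. Both were lower with an infarct. In fibroblast-like nuclei Rapgef3, the Epac1 gene, was at 45.7 CPM in running infarct, 44.3 in sedentary infarct, 27.2 in running and 26.4 in sedentary nuclei, higher with an infarct. Pde8a there was lower, at 106 CPM in running infarct, 94.3 in sedentary infarct, 163 in running and 151 in sedentary nuclei. In macrophage-like nuclei Pde7b was at 549 CPM in running infarct, 365 in sedentary infarct, 316 in running and 197 in sedentary nuclei, higher with an infarct. Pde4b, the enzyme that limits cAMP in inflammatory cells, was lower, at 155 CPM in running infarct, 150.4 in sedentary infarct, 236 in running and 236 in sedentary nuclei. In lymphatic endothelial-like nuclei Pde4d was at 462 CPM in running infarct, 527 in sedentary infarct, 297 in running and 291 in sedentary nuclei, higher with an infarct. Pde1a there was lower, at 53.3 CPM in running infarct, 68.5 in sedentary infarct, 117 in running and 105 in sedentary nuclei.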
